A study of Mus musculus with 12 samples.

Results

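The genes described are 10 genes of the endoplasmic reticulum (ER) unfolded protein response, *Hspa5*, *Hsp90b1*, *Calr*, *Pdia4*, *Dnajb9*, *Herpud1*, *Xbp1*, *Atf4*, *Ddit3* and *Trib3*. They were taken by symbol from the 55487 gene identifiers in the count table. Of these 10 genes, 9 passed the filter on low counts, as did 8984 genes in all, and *Trib3* did not. Whole lenses of 7-day-old mice (P7) gave 12 RNA-seq libraries, 3 for each of 4 genotypes of *Trpm3*, the gene of a calcium-conducting cation channel of the plasma membrane. All strains were kept on the B6J background, and 4 male plus 4 female lenses were said to be pooled for each library, so that it holds RNA of epithelium and fiber cells together. The genotypes were wild-type, *Trpm3*-KO (the gene disrupted by homologous recombination with an IRES-LacZ-neo cassette), *Trpm3*-I/M (heterozygous for the p.I65M substitution, knocked in by CRISPR/Cas9) and *Trpm3*-M/M (homozygous for it), called KO, I/M and M/M below. The study compared the mutant channel with the absence of the channel to ask which changes of lens gene expression accompany cataract. The knock-in was not restricted to the lens, so other tissues of the eye carried the same genotype.

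Proteins that enter the ER are folded there by chaperones, many of which need calcium to work. When unfolded proteins gather, the sensors IRE1 (encoded by *Ern1*), PERK (encoded by *Eif2ak3*) and ATF6 start the unfolded protein response, which raises chaperones and degradation factors and slows protein synthesis. In the lens, fiber cells make crystallins in very large amounts and then remove their ER together with their other organelles.

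Among the 10 genes, 4 hold the classical letters of this response in front of their start site, and these stretches are shown because the same genes were measured below. The promoter windows were those of RefSeq on GRCm38.p6, 250 bases before to 50 bases after each gene's start site, and each of the 10 genes matched 1 window. Both strands were searched for the ER stress response element (ERSE, CCAAT and CCACG with any 9 bases between them), ERSE-II (ATTGG and CCACG with any base between them), the unfolded protein response element (UPRE, TGACGTGG) and the C/EBP-ATF response element (CARE, TGATGNAAT). Capitals mark the matches, and each stretch reads 5′ to 3′ along the gene's own strand. The stretches of *Hsp90b1* (chr10:86705510-86705694, minus strand), *Calr* (chr8:84846935-84847181, minus strand) and *Herpud1* (chr8:94386179-94386428, plus strand) are the part of the window that GENCODE places before the gene. For *Hspa5* only 30 bases around the match are given (chr2:34772020-34772049, plus strand), because GENCODE starts that gene 120 bases farther upstream than RefSeq.
Hspa5: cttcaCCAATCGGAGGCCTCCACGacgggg
Hsp90b1: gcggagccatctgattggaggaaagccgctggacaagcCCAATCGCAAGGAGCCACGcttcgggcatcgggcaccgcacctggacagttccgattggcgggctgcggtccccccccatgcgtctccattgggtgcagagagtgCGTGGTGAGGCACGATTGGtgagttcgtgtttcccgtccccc
Calr: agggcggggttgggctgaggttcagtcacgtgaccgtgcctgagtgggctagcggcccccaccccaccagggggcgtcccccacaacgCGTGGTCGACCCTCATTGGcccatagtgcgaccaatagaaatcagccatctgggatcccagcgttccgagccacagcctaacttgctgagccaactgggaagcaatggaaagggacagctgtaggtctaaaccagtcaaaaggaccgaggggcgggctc
Herpud1: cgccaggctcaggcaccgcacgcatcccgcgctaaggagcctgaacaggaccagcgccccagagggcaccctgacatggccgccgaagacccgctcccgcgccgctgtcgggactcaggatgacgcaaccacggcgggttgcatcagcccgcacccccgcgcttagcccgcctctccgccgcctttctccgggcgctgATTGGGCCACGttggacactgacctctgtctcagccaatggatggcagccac
*Hspa5* held 1 ERSE, from 65 to 47 bases upstream of the RefSeq start site. *Hsp90b1* held 2, from 212 to 194 bases upstream on the gene's strand and from 107 to 89 bases upstream on the opposite strand. *Calr* held 1 on the opposite strand, from 162 to 144 bases upstream. The ERSE letters stood in 39 of the 32851 windows of all genes (0.119%). *Herpud1* held 1 ERSE-II, from 52 to 42 bases upstream, and that motif stood in 12 windows (0.0365%). The UPRE letters (0.676% of all windows) and the CARE letters (0.965%) were in none of the 10 windows. A match is a description of the letters, and an exact search misses sites that differ by a base. The 250 upstream bases searched for *Dnajb9* lie wholly inside the gene as GENCODE places it, so bases before its GENCODE start were not searched.

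**Figure D1:**
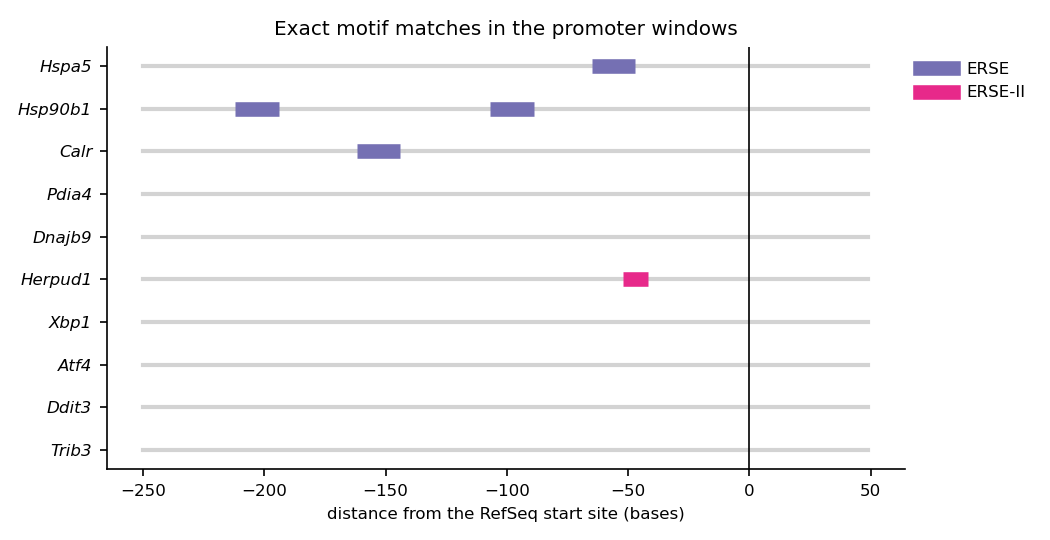
Exact motif matches in the promoter windows of the 10 genes. Each grey line is 1 window, the horizontal axis is the distance in bases from the RefSeq start site (vertical line), violet bars are ERSE matches and the pink bar is the ERSE-II match. *Hsp90b1* holds 2 ERSE matches, *Hspa5* and *Calr* 1 each and *Herpud1* the ERSE-II match at 52 to 42 bases upstream, while the other 6 windows hold none.

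Facts of the libraries that touch these results are as follows. Total counts ran from 56162169 to 60992835 in wild-type and KO libraries and from 65454127 to 82090198 in I/M and M/M libraries. *Trpm3* itself was at 251 to 285 CPM (counts scaled to the library total after its adjustment by a trimmed mean of M values factor) in the wild-type group. The KO libraries held 89.9 to 99.7 CPM of it, the lowest level but not 0, those of I/M 370.2 to 413 and those of M/M 469 to 484. The library labelled I/M replicate 3 had 0.0721 CPM of *Xist*, which is transcribed from the inactive X chromosome of female cells, against 45.8 to 305 in the other 11 libraries. This goes against the described pool of both sexes, so the tests of I/M versus wild-type are also given without that library. Crystallins, the defining products of lens fiber cells, took 59.9% to 63.9% of all counts in wild-type and KO, 57.1% to 58.2% of those in I/M, and 49.4% to 51.3% of those in M/M. These trimmed mean of M values (TMM) factors, used for all levels in CPM, set the typical gene equal between libraries. The filter on low counts used CPM without them. The factors were 0.828 to 0.905 in wild-type and 1.22 to 1.27 in M/M, so a given TMM-scaled level met the filter more readily in M/M. Scaled by library size only, the median of all tested genes rose versus wild-type by 0.50 (log2) in M/M, 0.20 in I/M and 0.05 in KO, and by 0.31 from I/M to M/M.

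In M/M lenses versus wild-type, 8 of the 9 tested genes were higher and 1, *Atf4*, was lower at a false discovery rate (FDR) of at most 0.05 (edgeR's quasi-likelihood test, Benjamini-Hochberg adjustment). Of all tested genes, 62.7% changed in this comparison, 31.4% of all tested being higher and 31.4% lower. The median log2 fold change over the 9 genes was 0.74, beside -0.004 over all tested genes. A rise of at least 2-fold (FC ≥ 2) was seen in 3 of them, *Hspa5*, *Dnajb9* and *Ddit3*, against 6.42% of all tested genes. *Ddit3* passed the filter through the 3 libraries of M/M, where it was high, and 1 other. In I/M lenses 6 were higher, 1 was lower and 2 did not pass, against 32.6% of all tested genes changed (17.3% higher and 15.3% lower), and none reached FC ≥ 2 (3.33% of all tested genes did). In KO lenses none of the 9 passed, against 4.36% of all tested genes (2.16% higher and 2.2% lower). By single libraries, 8 of the 9 genes had every M/M library above every wild-type library and 1 had them all below, as 32.8% and 32.4% of all tested genes did. The same held for 8 and 1 of the 9 in I/M (23.1% and 21.5% of all tested genes) and for 1 and 1 in KO (11.4% and 11.9%). The pooled libraries cannot tell fewer cells of a type from less RNA per cell.

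**Figure D2:**
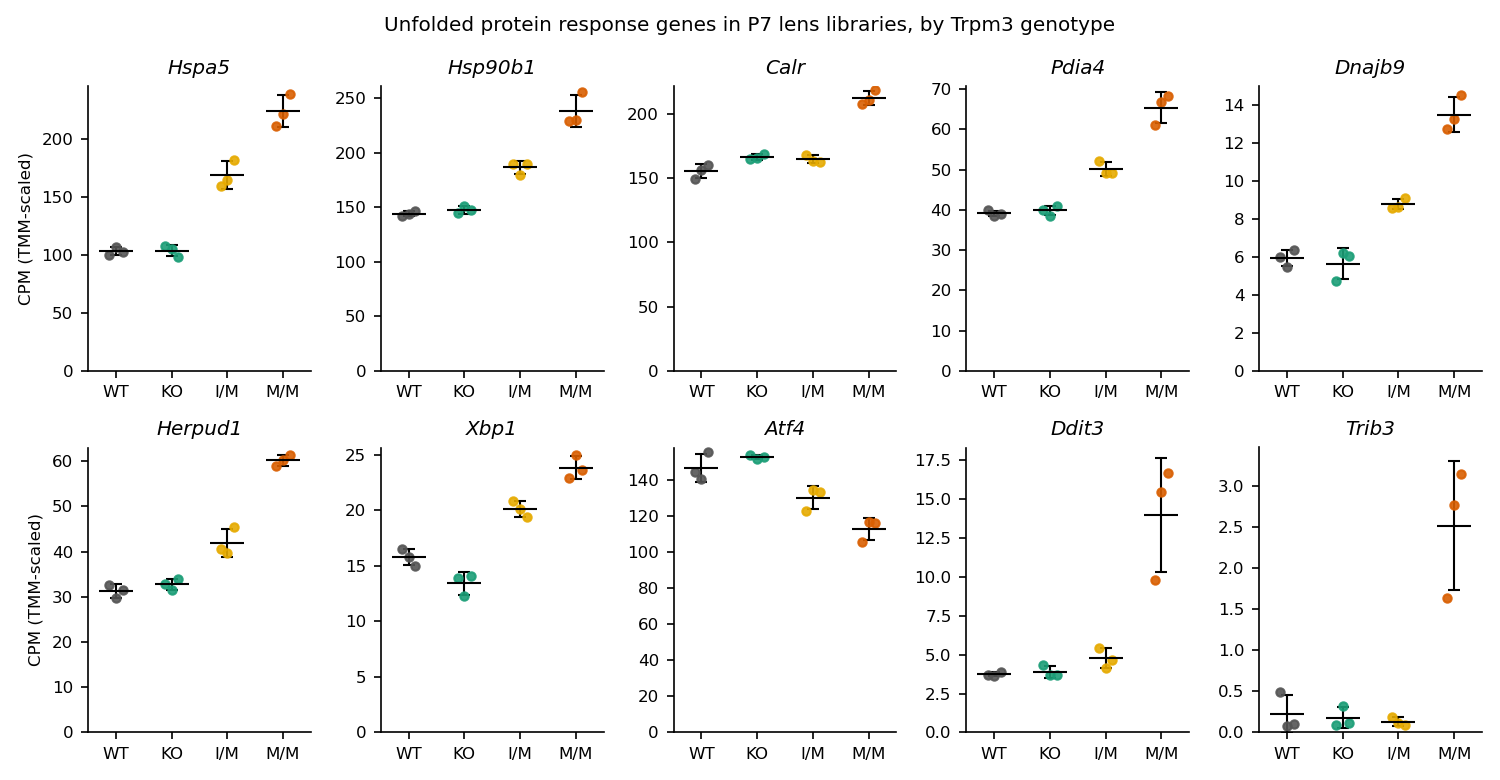
Levels of the 10 genes in the 12 lens libraries, grouped by *Trpm3* genotype. Each panel is 1 gene on its own vertical axis from 0 (CPM, TMM-scaled), points are libraries, the horizontal bar is the mean and the whiskers are ± 1 SD (3 libraries a group). *Hspa5* steps up from 100.01 to 107 CPM in wild-type to 159 to 182 in I/M and 211 to 238 in M/M, *Ddit3* and *Trib3* stand out in M/M only, and *Atf4* steps down under this scaling.

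The 4 chaperone and folding enzyme genes, *Hspa5*, *Hsp90b1*, *Calr* and *Pdia4*, and the co-chaperone gene *Dnajb9* rose in M/M lenses, and all of them but *Calr* rose in I/M lenses. *Hspa5* (ENSMUSG00000026864, chr2:34771970-34777547 on GRCm38, plus strand) encodes BiP, the main HSP70 chaperone of the ER lumen, which also holds the stress sensors inactive. Its levels were 100.01, 107 and 102 CPM in the wild-type libraries, 108, 105 and 98.1 in KO, 159, 165 and 182 in I/M and 211, 221 and 238 in M/M. Wild-type and KO libraries were interleaved, every I/M library stood above them, and every M/M library stood above those of I/M. The means were 103 ± 3.41 CPM in wild-type and 223 ± 13.8 in M/M (SD, n = 3). This was a 2.17-fold rise (log2 fold change 1.12, SE 0.06, adjusted p = 4.48e-09). The rise in I/M was 1.64-fold (log2 fold change 0.71, adjusted p = 1.53e-06, and 0.65 without replicate 3). In KO the log2 fold change was 0.01, with a 95% confidence interval from -0.12 to 0.14.

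*Hsp90b1* (ENSMUSG00000020048, chr10:86690209-86705509, minus strand) encodes GRP94, the HSP90 chaperone of the ER, which folds a smaller set of clients that includes integrins. It was at 141, 144 and 147 CPM in wild-type, 145, 151 and 147 in KO, 189.8, 179 and 189.9 in I/M and 229, 230.0 and 255 in M/M libraries. The order of the groups was that of *Hspa5*, with no overlap between wild-type, I/M and M/M. The rise was 1.65-fold in M/M (log2 fold change 0.72, SE 0.05, adjusted p = 3.24e-08) and 1.29-fold in I/M (log2 fold change 0.37, adjusted p = 6.59e-05, and 0.36 without replicate 3).

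*Pdia4* (ENSMUSG00000025823, chr6:47796141-47813430, minus strand) encodes a protein disulfide isomerase, an enzyme that forms and exchanges disulfide bonds. Its levels were 39.9, 38.6 and 38.9 CPM in wild-type, 40.1, 38.6 and 40.9 in KO, 52.3, 49.1 and 49.1 in I/M and 61.0, 66.8 and 68.3 in M/M libraries. The wild-type and KO values were interleaved, and the I/M and M/M libraries formed separate steps above them. The rise was 1.67-fold in M/M (log2 fold change 0.74, adjusted p = 3.62e-08) and 1.28-fold in I/M (0.36, adjusted p = 1.21e-04, and 0.37 without replicate 3).

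*Calr* (ENSMUSG00000003814, chr8:84841850-84846934, minus strand) encodes calreticulin, a lectin chaperone that also stores calcium in the ER lumen. It was at 149.7, 156 and 160.3 CPM in wild-type, 165, 165 and 169 in KO, 168, 163 and 163 in I/M and 208, 211 and 218 in M/M libraries. Here the KO and I/M libraries overlapped each other just above the wild-type ones, and M/M alone stood far above. The rise in M/M was 1.37-fold (log2 fold change 0.45, SE 0.04, adjusted p = 5.02e-07). In I/M the log2 fold change was 0.08 (95% confidence interval -0.003 to 0.17) and did not pass (adjusted p = 0.134), nor did it without replicate 3 (0.09, adjusted p = 0.167). Scaled by library size only, it was 0.28 and passed (adjusted p = 8.03e-04), beside a shift of all genes by 0.20.

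*Dnajb9* (ENSMUSG00000014905, chr12:44205559-44210326, minus strand) encodes ERdj4, a co-chaperone of BiP that is a known target of spliced XBP1 and acts on IRE1. Its levels were low, 6.02, 5.48 and 6.34 CPM in wild-type, 4.71, 6.19 and 6.03 in KO, 8.59, 8.65 and 9.08 in I/M and 12.7, 13.2 and 14.5 in M/M libraries. The wild-type and KO values overlapped, and the others rose in separate steps. The rise was 2.27-fold in M/M (log2 fold change 1.18, SE 0.09, adjusted p = 1.46e-07) and 1.47-fold in I/M (0.56, adjusted p = 5.90e-04, and 0.53 without replicate 3).

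*Herpud1* (ENSMUSG00000031770, chr8:94386438-94395377, plus strand) encodes a membrane protein of the ER that gathers the machinery of ER-associated degradation. It was at 32.7, 29.7 and 31.6 CPM in wild-type, 32.7, 31.6 and 33.9 in KO, 40.6, 39.7 and 45.4 in I/M and 58.9, 60.2 and 61.4 in M/M libraries. The 3 M/M libraries lay close together and all stood above the highest I/M library, which was replicate 3. The rise was 1.92-fold in M/M (log2 fold change 0.94, SE 0.06, adjusted p = 1.11e-08), just under the 2-fold line, and 1.34-fold in I/M (0.42, adjusted p = 9.19e-05, and 0.36 without replicate 3).

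Of the transcription factors, *Xbp1* (ENSMUSG00000020484, chr11:5520659-5525893, plus strand) is the one whose mRNA is spliced by IRE1. The counts sum over its transcripts, so the spliced form was not measured here. Its levels were 16.5, 15.8 and 15.0 CPM in wild-type, 13.9, 12.2 and 14.1 in KO, 20.8, 20.1 and 19.4 in I/M and 22.9, 25.0 and 23.6 in M/M libraries. None of the 4 genotypes overlapped, and KO was the lowest. The rise was 1.51-fold in M/M (log2 fold change 0.60, SE 0.06, adjusted p = 1.50e-06) and 1.27-fold in I/M (0.35, adjusted p = 6.56e-04, and 0.37 without replicate 3). In KO the log2 fold change was -0.23 (95% confidence interval -0.37 to -0.10). It missed the threshold in the reported edgeR fit (adjusted p = 0.0556). It passed in DESeq2 (adjusted p = 0.0302) and in edgeR with no filter on low counts (adjusted p = 0.0233). Of all tested genes, 11.9% had every KO library below every wild-type one.

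*Atf4* (ENSMUSG00000042406, chr15:80255184-80257541, plus strand) encodes the factor that is translated more when PERK or a related kinase phosphorylates eIF2α, so its mRNA level need not follow its activity. It was at 144, 140.4 and 156 CPM in wild-type, 154, 152 and 153 in KO, 123, 135 and 133 in I/M and 106, 117 and 116 in M/M libraries. Under TMM scaling the order ran opposite to that of the chaperones, with every M/M library below every I/M library. The log2 fold change was -0.38 in M/M (SE 0.05, adjusted p = 4.31e-05) and -0.17 in I/M (adjusted p = 0.0285), but both turned to positive values that did not pass when libraries were scaled by size only, 0.13 (adjusted p = 0.103) and 0.03 (adjusted p = 0.759). Relative to the shift of all genes under that scaling, *Atf4* stood at -0.37 in M/M and at -0.17 in I/M. The I/M call was also lost without wild-type replicate 3 (log2 fold change -0.13, adjusted p = 0.104) and without I/M replicate 1 (-0.13, adjusted p = 0.115). It was lost as well with no filter on low counts, and it held without I/M replicate 3 (-0.19, adjusted p = 0.0444).

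*Ddit3* (ENSMUSG00000025408, chr10:127290774-127296288, plus strand) encodes CHOP, a factor induced through ATF4 that is linked to cell death under lasting ER stress. Its levels were 3.72, 3.66 and 3.89 CPM in wild-type, 4.34, 3.71 and 3.66 in KO, 5.43, 4.16 and 4.69 in I/M and 9.83, 15.4 and 16.7 in M/M libraries. M/M replicate 1 was the lowest of its group and still stood well above all others, while I/M lay only slightly above wild-type. The rise in M/M was 3.73-fold (log2 fold change 1.90, SE 0.17, adjusted p = 6.33e-07), the steepest of the 9 tested genes. In I/M the log2 fold change was 0.34 (95% confidence interval -0.06 to 0.74, adjusted p = 0.184) and did not pass, nor did it without replicate 3 (0.35, adjusted p = 0.249). It passed when scaled by library size only (0.54, adjusted p = 0.0256), with no filter on low counts (0.36, adjusted p = 0.00391) and without M/M replicate 1 (0.34, adjusted p = 0.0259). Only 1 library outside M/M reached the 5 CPM of the filter for this gene, so its place among the tested genes came through the group in which it was high. A second identifier under the same symbol had 0 counts.

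*Trib3* (ENSMUSG00000032715, chr2:152337422-152344032, minus strand) encodes a pseudokinase induced by CHOP and ATF4. It had 25, 4 and 5 counts in wild-type, 5, 18 and 6 in KO, 14, 9 and 6 in I/M and 131, 256 and 279 in M/M libraries. In CPM the M/M libraries were at 1.64, 2.78 and 3.15, and the other 9 libraries were at 0.492 or less. As with *Ddit3*, the 3 M/M libraries stood apart and M/M replicate 1 was the lowest of them. The gene did not reach 5 CPM in any library and was not tested at that filter. With the filter lowered to 1 CPM, which it passed through M/M alone, its log2 fold change was 3.44 in M/M versus wild-type (adjusted p = 2.28e-05).

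**Figure D3:**
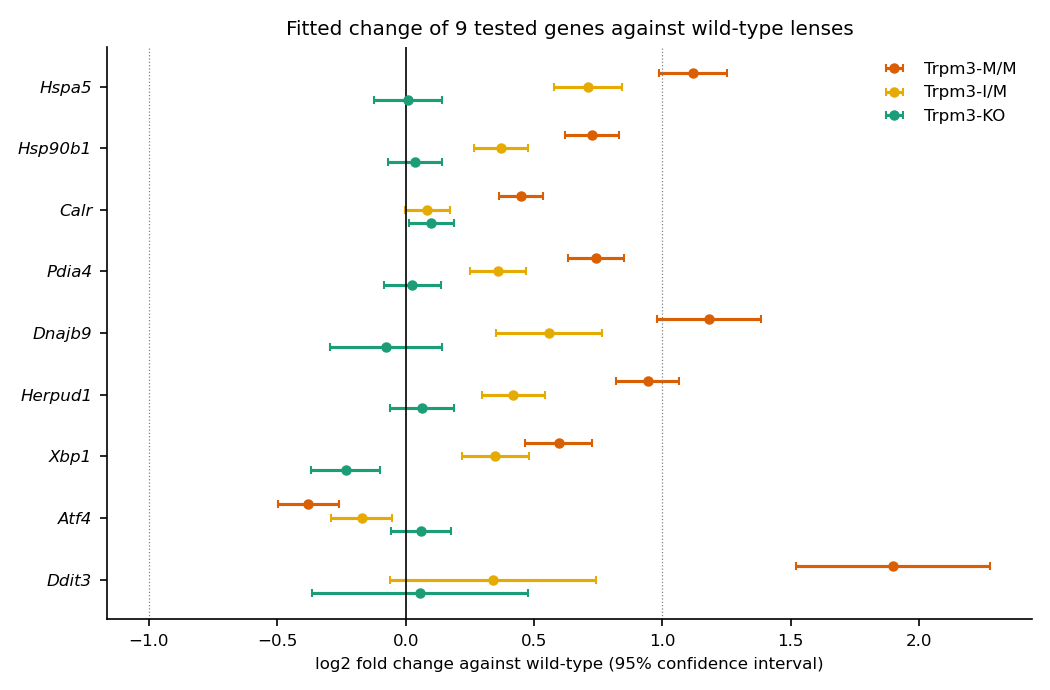
Fitted log2 fold changes of the 9 tested genes against wild-type. Points are edgeR estimates for M/M (orange), I/M (yellow) and KO (green), bars are 95% confidence intervals, and dotted lines mark a fold change of 2 in either direction. The M/M estimates run from -0.38 (*Atf4*) to 1.90 (*Ddit3*), the I/M estimates from -0.17 to 0.71, and the KO estimates from -0.23 to 0.10.

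M/M was also set against I/M, to ask which genes differ between homozygous and heterozygous lenses. The comparison uses the same M/M and I/M libraries as the comparisons with wild-type and is not independent of them. All 9 tested genes passed, 8 higher and *Atf4* lower, where 51.3% of all tested genes changed, 25.6% higher and 25.7% lower. Each of the 8 had all M/M libraries above all I/M libraries and *Atf4* had them below, as 30.4% and 30.2% of all tested genes did. *Ddit3* differed most, by 2.94-fold (log2 fold change 1.56, SE 0.16, adjusted p = 5.24e-06), and was the 1 gene past 2-fold, against 3.67% of all tested genes. *Dnajb9* followed with 0.62 and *Herpud1* with 0.52. *Hspa5* (0.41), *Pdia4* (0.38), *Calr* (0.37) and *Hsp90b1* (0.35) differed by similar amounts, and *Xbp1* by 0.25 (adjusted p = 0.00308). *Atf4* was lower by this scaling (log2 fold change -0.21, adjusted p = 0.00617) and at 0.10 when scaled by library size only (adjusted p = 0.205). The counts of genes that passed were the same without I/M replicate 3, 9 in M/M versus I/M and 7 in I/M versus wild-type.

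In KO lenses the log2 fold changes of the 9 genes ran from -0.23 to 0.10, and none passed in the reported edgeR fit. At an unadjusted p under 0.05 there were 2 of them, *Xbp1* and *Calr*. DESeq2 called 1, *Xbp1*, as did edgeR with no filter on low counts. *Calr* had a log2 fold change of 0.10 (95% confidence interval 0.01 to 0.19, adjusted p = 0.205), and all its KO libraries stood above the wild-type ones, as for 11.4% of all tested genes. The widest interval was that of *Ddit3*, from -0.36 to 0.48, while the interval of *Hsp90b1* ran from -0.07 to 0.14. Set against KO in place of wild-type, all 9 genes again passed in M/M, 8 of them higher. This control was added after the data were seen.

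Per length, the genes span a wide range of levels. In wild-type lenses *Atf4* was highest at 62.3 ± 3.34 CPM per kb of exon (SD, n = 3), followed by *Calr* at 54.0 ± 1.86, *Hsp90b1* at 35.7 ± 0.661, *Hspa5* at 24.3 ± 0.805, *Pdia4* at 16.3 ± 0.285 and *Herpud1* at 13.4 ± 0.653. *Xbp1* stood at 4.86 ± 0.230, *Dnajb9* at 2.33 ± 0.170, *Ddit3* at 2.19 ± 0.0695 and *Trib3* at 0.106 ± 0.109. *Dnajb9* and *Ddit3* overlapped in wild-type, and no other neighbours in this order did. In M/M lenses the order was *Calr* (73.7 CPM per kb), *Hsp90b1* (59.1), *Hspa5* (52.8), *Atf4* (47.9), *Pdia4* (27.2), *Herpud1* (25.8), *Ddit3* (8.16), *Xbp1* (7.34), *Dnajb9* (5.29) and *Trib3* (1.19). *Atf4*, highest in wild-type, thus came after *Calr*, *Hsp90b1* and *Hspa5*, and *Ddit3* came above *Xbp1* and *Dnajb9*. In that order *Pdia4* overlapped *Herpud1*, and *Ddit3* overlapped *Xbp1*.

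The other genes of the pathway were taken from lists by function, 110 genes of which 93 were tested. In M/M 46 were higher and 16 lower, with a median log2 fold change of 0.17, where 31.4% of all tested genes were higher and 31.4% lower. In I/M 29 were higher and 9 lower, with a median of 0.08, where 17.3% of all tested genes were higher and 15.3% lower, and without I/M replicate 3 there were 25 and 8. Scaled by library size only, 87 were higher and 2 lower in M/M, and 65 were higher and 4 lower in I/M. Under that scaling 7364 of the 8984 genes tested in all were higher and 495 lower in M/M, and 4661 and 355 in I/M. In KO, with TMM factors, 3 were higher and none was lower, where 2.16% of all tested genes were higher and 2.2% lower. These were *Tnfrsf10b*, described below, and, named here after their values were seen, *Atf5* (log2 fold change 0.31) and *Slc3a2* (0.16), both of the integrated stress response. Of the other ER chaperones and folding enzymes, 20 were tested, of which 15 were higher in M/M and none lower, with a median of 0.45, and 11 were higher in I/M, with a median of 0.19. *Sil1*, the nucleotide exchange factor of BiP, rose most, from 13.2, 13.2 and 14.5 CPM in wild-type to 21.0, 19.5 and 18.8 in I/M and 25.5, 28.2 and 30.02 in M/M libraries (log2 fold change 1.03 in M/M, adjusted p = 1.84e-08). Its KO libraries, at 14.5 to 15.1, overlapped those of wild-type, and the I/M and M/M libraries formed separate steps above them.

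Of the sensors, *Ern1* was near the filter, at 3.33 to 4.19 CPM in wild-type and 3.79 to 4.07 in M/M libraries, and was not tested. Without TMM factors it reached 5 CPM in 2 libraries, both of M/M. *Eif2ak3* was higher in M/M (log2 fold change 0.51, adjusted p = 2.78e-04), where its libraries were at 5.78, 6.35 and 6.20 CPM against 4.23, 4.39 and 4.26 in wild-type. It reached the 5 CPM of the filter in the 3 M/M libraries alone, so its place among the tested genes came through the group in which it was high. *Atf6* did not pass in M/M (log2 fold change -0.04, 95% confidence interval -0.15 to 0.07), but scaled by library size only it was at 0.46 and passed, beside the shift of 0.50 for all genes. In M/M, where 31.4% of all tested genes were higher and 31.4% lower, 4 of the 9 tested sensors and processing genes were higher and 1 was lower. *Eif2ak3* was among the 4. *Creb3l1*, an ATF6-related factor cut from the ER membrane, rose most (log2 fold change 0.95, adjusted p = 7.01e-06), and *Mbtps1*, the protease that first cuts ATF6, was the 1 lower gene (-0.24, adjusted p = 2.65e-04) and was at 0.27 when scaled by library size only.

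ER-associated degradation and translocation genes were mixed. In M/M, 31.4% of all tested genes were higher and 31.4% lower. Of 17 tested degradation genes, 8 (47.1%) were higher and 5 (29.4%) lower, with a median of 0.08. *Edem1*, which marks misfolded glycoproteins for removal, rose most (log2 fold change 0.76, adjusted p = 8.19e-06), and it passed the filter through the 3 M/M libraries and 1 other. *Selenos*, a selenoprotein of the retrotranslocation machinery, fell most (-0.21, adjusted p = 0.0161) but was at 0.30 when scaled by library size only. Its lower call in M/M held in 17 of 21 alternatives (adjusted p up to 0.105). In I/M *Selenos* was higher (0.27, adjusted p = 0.00769). Of 16 translocation and signal cleavage genes, 8 (50%) were higher and 3 (18.8%) lower in M/M. *Sec11c*, a catalytic subunit of the signal peptidase, had the steepest rise of all 93 genes, from 10.2, 10.4 and 10.6 CPM in wild-type to 36.5, 47.6 and 50.2 in M/M libraries (log2 fold change 2.11, adjusted p = 1.58e-09), with 14.6, 12.7 and 13.3 in I/M. Its log2 fold change was 0.38 in I/M versus wild-type and 1.73 in M/M versus I/M, a pattern close to that of *Ddit3* (0.34 and 1.56). *Ssr2*, a subunit of the translocon-associated protein complex, fell most (-0.20, adjusted p = 0.0200) but was at 0.31 when scaled by library size only. Its lower call held in 16 of 21 alternatives (adjusted p up to 0.114).

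Genes of the integrated stress response, the arm of PERK, ATF4 and CHOP that other kinases share, changed in both directions. Of 34 listed, 26 were tested. Of these, 8 (30.8%) were higher and 6 (23.1%) lower in M/M, with a median of 0.05, where 31.4% of all tested genes were higher and 31.4% lower. The genes too low to be tested are named here after their values were seen. From wild-type to M/M the mean CPM of *Chac1* went from 0.185 to 5.76, *Atf3* from 0.291 to 3.82 and *Cebpb* from 0.551 to 3.84. *Stc2* went from 0.776 to 2.59, *Gdf15* from 0.374 to 0.971, *Fgf21* from 0 to 0.064, *Cth* from 0.188 to 0.208 and *Pck2* from 1.76 to 1.63. Of the 26 tested, 3 were higher and 7 lower in I/M, where 17.3% of all tested genes were higher and 15.3% lower. *Asns*, the asparagine synthetase gene induced by ATF4, rose from 8.85, 7.61 and 6.05 CPM in wild-type to 18.2, 16.3 and 18.9 in M/M libraries (log2 fold change 1.25, adjusted p = 1.46e-06) and was at 6.84, 6.94 and 8.09 in I/M. It stood at 12.02, 9.31 and 10.05 CPM in KO, above the wild-type libraries without passing (log2 fold change 0.48, adjusted p = 0.0599). It passed when scaled by library size only (adjusted p = 0.0340), in DESeq2 (0.00809), with no filter (4.47e-07) and without wild-type replicate 1 (0.0218), and in none of the other 16 alternatives. *Ppp1r15a*, which encodes GADD34, the phosphatase subunit that reverses eIF2α phosphorylation, fell to 58.1, 58.9 and 59.99 CPM in M/M (log2 fold change -1.68, adjusted p = 1.15e-05) and to 91.7, 90.6 and 90.7 in I/M (-1.05, adjusted p = 0.00162). Its wild-type libraries differed widely, at 164, 281 and 121 CPM, and its KO libraries were at 164, 164 and 157, above all libraries with the substitution. Without wild-type replicate 2 the log2 fold change was -1.28 in M/M and -0.65 in I/M, and the latter no longer reached 2-fold.

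Of 5 tested cell death genes, 3 were higher and 1 lower in M/M, where 31.4% of all tested genes were higher and 31.4% lower. *Tnfrsf10b*, a death receptor gene induced by CHOP, rose (log2 fold change 0.69, adjusted p = 6.06e-05), but it rose as well in I/M (0.76) and in KO (0.88, adjusted p = 1.90e-04), and against KO it was at -0.20 in M/M (adjusted p = 0.0900). *Tmbim6*, which encodes the ER membrane protein Bax inhibitor 1, fell by 0.61 on the log2 scale in M/M (adjusted p = 1.38e-08) and by 0.26 in I/M, from 177, 179.7 and 186 CPM in wild-type to 119.9, 121 and 115 in M/M libraries. Scaled by library size only, its log2 fold changes were -0.10 in M/M and -0.06 in I/M. Neither passed (adjusted p = 0.0797 and 0.327). Without I/M replicate 3 the I/M log2 fold changes were 0.25 for *Selenos*, 0.39 for *Sec11c*, -1.05 for *Ppp1r15a*, 0.73 for *Tnfrsf10b* and -0.26 for *Tmbim6*, with adjusted p-values from 5.07e-04 (*Tnfrsf10b*) to 0.0341 (*Sec11c*).

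**Figure D4:**
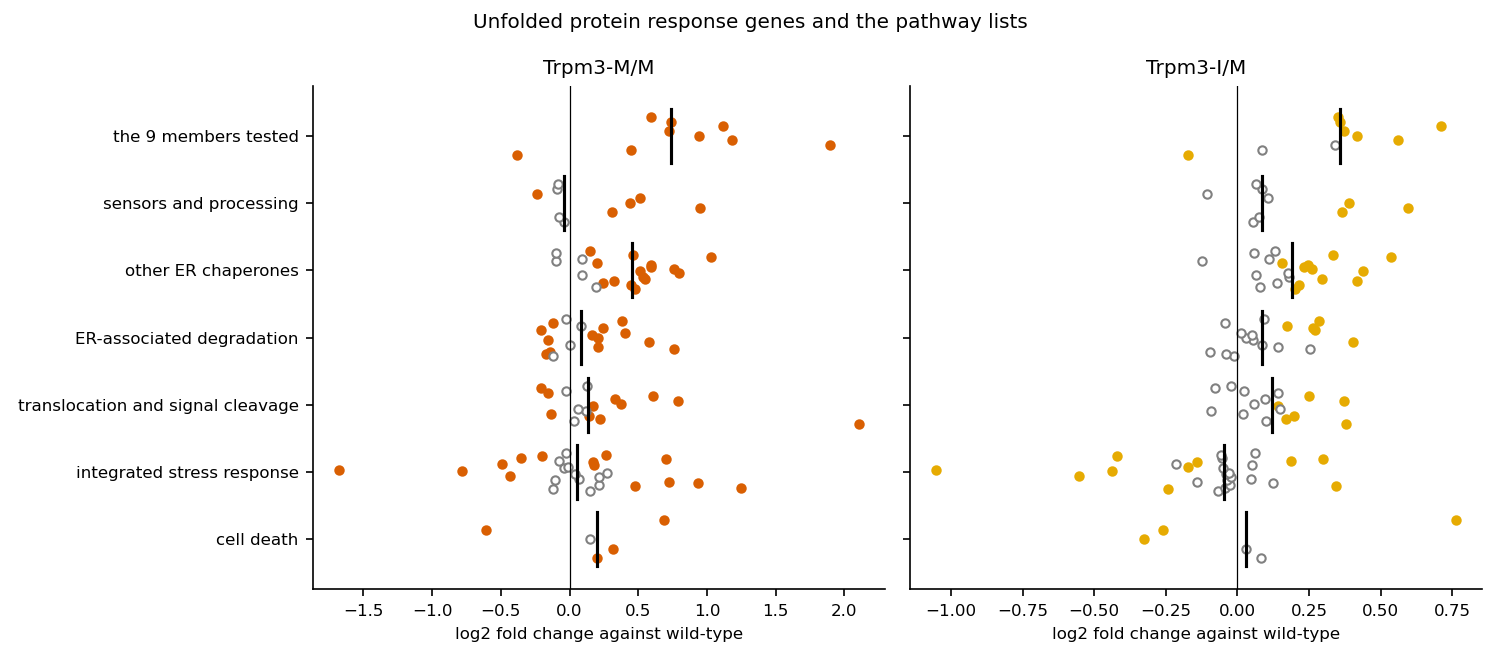
Log2 fold changes against wild-type of the 9 tested genes and of the other pathway genes by list, in M/M (left) and I/M (right). Each point is a gene, filled where it passed FDR ≤ 0.05 and open where it did not, black bars are list medians, and the horizontal axes of the panels differ. The other ER chaperones have a median of 0.45 in M/M and 0.19 in I/M, while the integrated stress response spreads on both sides of 0 around 0.05 and -0.05.

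Markers of other cells moved with the same genotypes. Summed CPM of 10 vascular endothelial markers was 13.9 to 16.4 in wild-type, 13.8 to 15.1 in KO, 25.8 to 33.3 in I/M and 61.8 to 70.0 in M/M libraries. The sum of 10 pericyte and fibroblast markers was 159 to 168, 126 to 134, 164 to 195 and 311 to 449 CPM, and that of 10 macrophage markers 0.476 to 0.649, 0.432 to 0.452, 1.05 to 1.13 and 10.4 to 21.1 CPM, in the same order. Those of 6 red blood cell markers (1.22 to 11.9 and 12.4 to 15.0) and 10 neural retina markers (0.777 to 1.22 and 2.24 to 4.85) were also higher in M/M than in wild-type, 6 pigment cell markers overlapped (3.09 to 3.63 and 2.89 to 3.46), and 6 corneal markers had a lower sum (419 to 453 and 259 to 287). In I/M these sums were 4.71 to 12.9 CPM for red blood cells, 1.09 to 1.37 for neural retina, 5.32 to 6.17 for pigment cells, above every wild-type library, and 345 to 369 for cornea. Most of the pigment cell sum was *Tyrp1*, at a mean of 2.25 CPM in wild-type and 4.65 in I/M, while *Pmel* was at 0.826 and 0.838. The corneal sum was nearly all *Tkt*, at 419 to 453 CPM in wild-type and 254 to 283 in M/M, while *Aldh3a1* went the other way, from 0.216 to 0.396 CPM in wild-type to 3.59 to 5.15 in M/M. Of the pericyte and fibroblast markers 7 were tested, of which 6 were higher and 1 lower in M/M versus wild-type. Between these groups the mean of *Acta2* rose from 68.3 to 212 CPM and that of *Col1a1* from 0.128 to 54.3. The mean of *Pdgfra* fell from 79.4 to 39.0 CPM. No listed marker of these types was at 0 in every library of M/M except 1 of the pigment cells and 1 of the cornea. Sums of 10 lens fiber markers fell from 33050 to 35315 CPM in wild-type to 17392 to 20129 in M/M. Those of 8 lens epithelial markers fell from 691 to 736 CPM to 577 to 609 under TMM scaling. Marker sums were not taken with library size only, which raised the median of all tested genes by 0.50 (log2) in M/M. That epithelial sum hides changes in both directions, as 5 of the 8 were lower and 2 higher, their median being -0.73 (log2). Its largest part, *Cdh2*, rose from a mean of 246 to 279 CPM, and *Npnt* rose from 94.0 to 125. *Foxe3* fell from a mean of 90.8 to 19.2 CPM and *Slc38a3* from 55.4 to 17.2. The part of these cells, and of the greater depth of the mutant libraries, in the levels of the 10 genes was not tested. Expression per cell and the makeup of the pooled lenses cannot be told apart here.

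**Figure D5:**
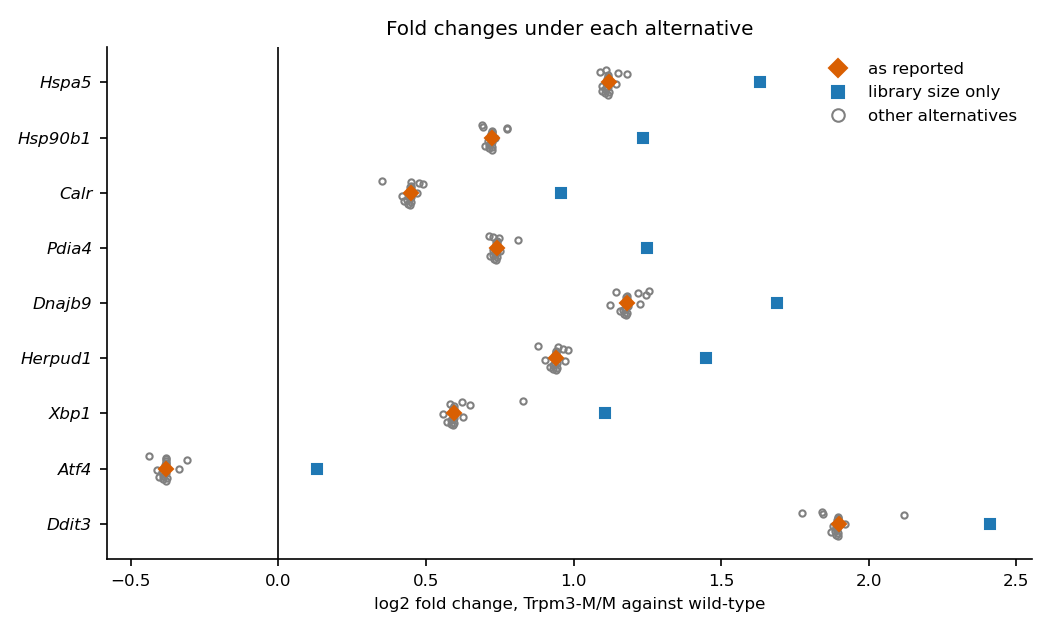
Log2 fold changes in M/M versus wild-type under each way of processing. Diamonds are the values reported, squares those scaled by library size only, and open circles the other alternatives, including each library left out in turn. Squares lie about 0.50 to the right for every gene, which carries *Atf4* from -0.38 to 0.13, and the other 8 genes stay above 0 throughout.

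The genes whose pattern over the 12 libraries was most like that of *Hspa5* were found by the root mean square difference of log2 CPM, each centred on the gene's own mean. They were *Ece1* (0.0820), *Cers4* (0.0825), *Pld3* (0.0912), *B4galt6* (0.0915) and *Gm11837* (0.0944). *Ece1*, for example, went from a mean of 60.3 CPM in wild-type to 90.0 in I/M and 123 in M/M. Of the 9 tested genes, *Dnajb9* (0.145) and *Herpud1* (0.157) were closest to *Hspa5* by this measure, and *Ddit3* (0.421) and *Atf4* (0.648) were farthest.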

How the data were processed

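All 12 lens libraries were used and were assigned to genotypes by their titles. Reads were mapped and quantified by the authors with DRAGEN (mm10 in the submitters' notes), who deposited estimated counts per gene, without normalization and without pooling of replicates. A second deposited table holds the same counts for 9470 genes with CPM, log2 fold changes and p-values of the authors' comparisons, none of which were used. Whether the counting used strand is not given in the sources used here. In the column names, M/M replicate 3 and KO replicate 2 carry a trailing letter c.

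Repeated entries of 168 identifiers were used once. Counts (88.4% whole) were rounded, and 8984 genes with at least 5 CPM (without TMM factors) in 3 or more libraries were kept, with a depth of 56162169 to 82090198 counts a library. One quasi-likelihood fit of all 12 libraries in edgeR 4.0.16 (R 4.3.3, TMM factors, genotype as the only factor) gave log2 fold changes with standard errors and 95% confidence intervals, with Benjamini-Hochberg adjustment over all tested genes. Whether the pools shared animals or litters is not given in the sources used here, so p-values measure the spread between these libraries. Replicate numbers were checked for pairing. Of 18 pairs of libraries with the same number, 2 had deviations correlated over 0.1 (r from -0.263 to 0.151). No pairing by number was seen, but deviations within groups of 3 libraries cannot exclude it. The numbers were left out of the reported fit. Replicates differed by more than sampling noise (chi-square per gene at least 8.76). The fit was tested on simulated data.

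The 10 genes and all lists were chosen with earlier results of these data known. Named pathway genes were the 3 sensors, the largest rise and the largest fall of each list in M/M, and every list gene past FDR ≤ 0.05 and FC ≥ 2 in any comparison, besides *Trpm3* and the 5 genes most like *Hspa5* (on log2 CPM with 0.25 CPM added). Of the pathway genes listed, 1 was not matched by symbol. Exon lengths and positions came from GENCODE M21 (GRCm38), and promoters from RefSeq. Alternatives were library size only, TMM factors without crystallin genes, upper-quartile scaling, DESeq2 1.42.0, a CPM of at least 1, no filter, only the genotypes compared, the replicate block, FC ≥ 2, each library left out and, added after seeing the data, KO as the control.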

Additional observations from a re-analysis of the deposited data

How the results depend on the processing

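The number of the 9 tested genes that passed in M/M versus wild-type was 9 with every library left out in turn (9 to 9), as in M/M versus I/M (9 to 9), while it ran from 6 to 8 in I/M versus wild-type and was 0 in KO (0 to 0). With FC ≥ 2 required, 3 passed in M/M, 0 in I/M and 1 in M/M versus I/M. In KO, 1 gene (*Xbp1*, lower) passed under DESeq2 and also with no filter on low counts. Over the 36 gene-wise comparisons, 726 of 738 alternative fits kept their side of the threshold, and the direction where they passed. The tally includes fits that left out a library of a genotype not compared, which could change little. Signs did differ among the 726 where neither fit passed, as for *Hspa5* in KO, which ran from -0.019 to 0.058. Of the others, 3 lost the call (*Atf4* in I/M), 6 gained one, and 3 turned sign where the reported fit had passed. Those 3 were *Atf4* scaled by library size only, at 0.13 in M/M, 0.027 in I/M and 0.10 between them. The same scaling turned *Mbtps1* (0.27 and, versus I/M, 0.18), *Ssr2* (0.31 and 0.18), *Atf6* (0.46 and 0.21), *Selenos* (0.30 versus wild-type) and *Tnfrsf10b* (0.23 versus I/M), and made 93.7% of all called genes higher in M/M (50.03% with TMM factors), 92.9% in I/M (53.0%), 68.9% in KO (49.5%) and 92.8% in M/M versus I/M (49.9%). Against KO, *Tnfrsf10b* turned to -0.20 in M/M and -0.12 in I/M. Of the 93 tested pathway genes, 38 changed in I/M, 50 in M/M versus I/M and 3 in KO, and these counts were 69 and 82 with library size only and, in KO, 7 with no filter. With libraries left out they ran from 55 to 62 in M/M, 29 to 40 in I/M, 2 to 4 in KO and 38 to 52 in M/M versus I/M. With the replicate number as a block, 9, 7, 0 and 9 of the 9 genes and 59, 36, 2 and 47 pathway genes passed in M/M, I/M, KO and M/M versus I/M. The causes of these changes were not tested. Depth limits *Trib3*, at 4 to 25 counts outside M/M, and 3 libraries a genotype limit every interval.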

Other observations

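The ERSE letters stood in the windows of 37 genes, 34 besides *Hspa5*, *Hsp90b1* and *Calr*, and 9 of these 34 were tested. In M/M lenses 6 of the 9 were higher and none was lower (31.4% of all tested genes were higher), and their median was 0.25 (log2). In I/M 5 were higher and 1 lower (17.3% and 15.3% of all tested genes), and in KO none passed in the reported edgeR fit (4.36% of all tested genes did). The 6 are named here after their values were seen. They were *Canx* (0.48), a membrane-bound relative of calreticulin, *Pdia6* (0.20), a disulfide isomerase, *Dnajc3* (0.32), a co-chaperone of BiP, and *Syvn1* (0.25), a ubiquitin ligase of ER-associated degradation, all of which are also in the pathway lists, and *Spats2l* (1.21) and *Adcy3* (0.94), an adenylyl cyclase gene, which are not.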
